A study of Mus musculus with 48 samples.

Results

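The genes described here were 10 members of the Notch pathway, chosen by name from the 24973 genes of the deposited table: the receptors *Notch1*, *Notch3* and *Notch4*, the ligands *Dll4*, *Jag1* and *Jag2*, and the targets *Hes1*, *Hey1*, *Hey2* and *Heyl*. All 10 were found. Their RNA was measured in microglia, astrocytes, pericytes and endothelial cells sorted from the brains of male C57BL/6 mice aged 12 to 15 weeks. The middle cerebral artery was occluded for 1 h and reperfused for 23 h, and the occluded (ipsilateral) and the opposite (contralateral) hemispheres were taken 24 h after the occlusion began. The contralateral hemisphere of the same operated mice was the only control, with no sham operation. Each of the 8 groups held 6 libraries, each from 3 to 4 pooled mice, and a replicate number marks a pool, so that all groups of a number share mice. The sort took pericytes by NG2 and PDGFRβ, endothelial cells by VECAD, astrocytes by high ACSA2, and microglia by low CD45 with CD11b.

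Notch receptors sit in the membrane and are switched on by ligands on a neighbouring cell. Binding leads to cleavage of the receptor, and its inner part moves to the nucleus, where it joins the DNA-binding protein RBPJ and turns on targets such as the *Hes* and *Hey* repressors. In vessels the pathway is known for arterial identity and sprouting in endothelium and for the upkeep of mural cells, the pericytes and smooth muscle cells that wrap the vessel.

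Values are counts of reads on genes that the authors normalized for library size and rounded. From the spacing of low values a library held 4.9 to 17.1 M reads on genes, and 3 reads, taken as the floor, were worth at most 7.1 normalized counts, a limit for counting error only. The sort separated the 4 cell types from each other: each of their 16 markers was higher in every library of its own cell type than in any other library. Other RNA was present. Summed smooth muscle markers (*Acta2*, *Myh11*, *Cnn1*, *Tagln*) reached 305671 to 472420 normalized counts in contralateral pericytes, against 44294 to 92716 for the pericyte markers. Oligodendrocyte markers reached 31112 to 283903 in contralateral astrocytes, against 57129 to 114614 for the astrocyte markers. How much oligodendrocytes added to the astrocyte levels below was not tested. Microglial markers in the other cell types reached 532 to 28388 in replicates 1 to 4 and 192 to 801 in replicates 5 and 6. In 12 ipsilateral samples, of pericytes or microglia, the titles name the opposite cell type to the sample descriptions and column names, which were used here. The 16 markers followed the column names: *Des* was at least 13587 in libraries so named as pericytes and at most 480 in any other. The titles would thus set pericytes against microglia. By them, 7 of the 10 genes would be called between hemispheres in pericytes and 8 in microglia, along with 6219 and 6179 of all genes. Contralateral replicate 2 stood apart for *Notch1* in endothelial cells and for *Notch1* and *Notch3* in pericytes. Ipsilateral replicate 1 of endothelial cells stood apart for *Notch1* and *Dll4*.

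**Figure D1:**
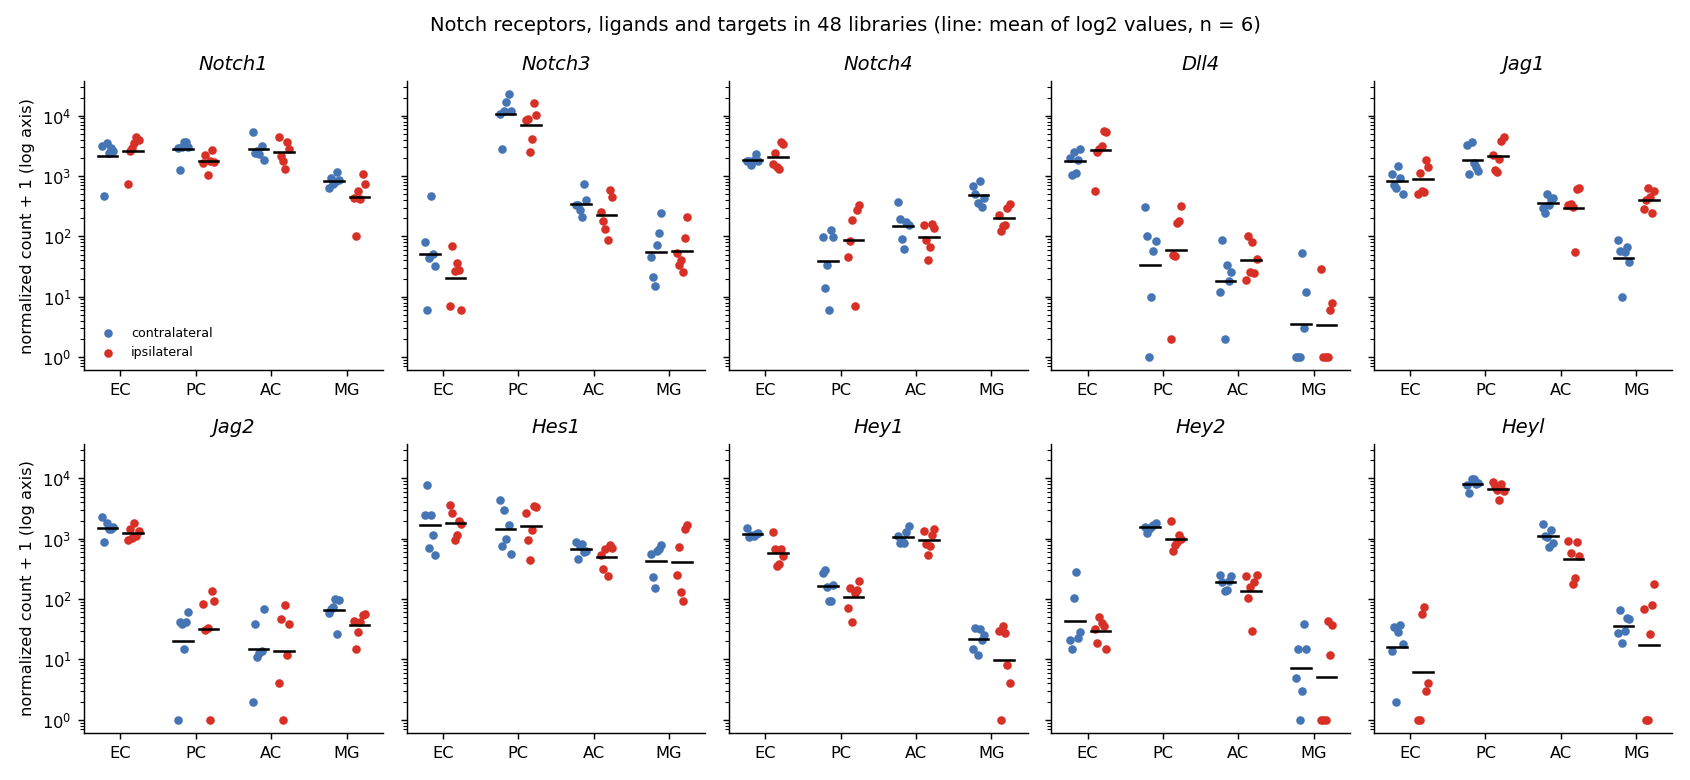
Normalized counts plus 1 of the 10 genes (log axis) in every library, where EC stands for endothelial cells, PC for pericytes, AC for astrocytes and MG for microglia, contralateral in blue and ipsilateral in red. Black lines are means of the log2 values of 6 libraries; *Notch3*, *Hey2* and *Heyl* were highest in pericytes, *Dll4*, *Jag2* and *Notch4* in endothelial cells, and *Jag1* was higher in all 6 ipsilateral than in all 6 contralateral libraries of microglia.

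The levels of the contralateral hemisphere describe where each gene was expressed. By the mean of log2 values, 5 of the 10 genes were highest in endothelial cells, 4 in pericytes and 1 in astrocytes. For *Notch1*, *Hes1*, *Hey1* and *Jag1* the highest cell type was not called apart from the next by the limma test below (adjusted p of 0.0513 to 0.989). Cell types were compared by limma on log2(normalized count + 1) in a fit of all 48 libraries, and a difference was called at an adjusted p of at most 0.05 and at least 1.5-fold. Endothelial cells and pericytes differed in 7 of the 10 genes, endothelial cells and astrocytes in 7, endothelial cells and microglia in 8, pericytes and astrocytes in 6, pericytes and microglia in 9, and astrocytes and microglia in 7. Of all 15003 genes tested, 34.6%, 49.1%, 41.6%, 45.4%, 48% and 50.7% were called in the same comparisons.

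Among the receptors, *Notch3*, the receptor of mural cells, was highest in the pericyte libraries. These also held smooth muscle RNA, as given above, and its part in their *Notch3*, *Hey2* and *Heyl* levels was not tested. The lowest, median and highest normalized counts of *Notch3* were 2849, 11934.5 and 22702 in contralateral pericytes, 209, 330.5 and 735 in astrocytes, 14, 57 and 244 in microglia and 5, 47 and 467 in endothelial cells. Every pericyte library was above every other library, and the step from pericytes to astrocytes was 4.95 on the log2 scale (SE 0.71, limma adjusted p = 1.25e-07). Astrocytes lay above microglia by 2.67 (SE 0.71, adjusted p = 0.00138), while microglia and endothelial cells were not called apart (adjusted p = 0.914).

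*Notch4*, a receptor known from endothelium, ranked in the reverse order, with pericytes lowest. Its lowest, median and highest values were 1514, 1767.5 and 2319 in endothelial cells, 307, 464.5 and 817 in microglia, 60, 160.5 and 371 in astrocytes and 5, 64.5 and 128 in pericytes. All neighbours in this order were called: endothelial cells above microglia by 1.89 (SE 0.63, adjusted p = 0.0123), microglia above astrocytes, as an astrocyte minus microglia difference of -1.72 (SE 0.63, adjusted p = 0.0185), and astrocytes above pericytes, as a pericyte minus astrocyte difference of -1.93 (SE 0.63, adjusted p = 0.00989). The last of these was lost without replicate 2 (-1.55, adjusted p = 0.079) and the one before it without replicate 3 (-1.67, adjusted p = 0.0539). *Notch1*, a receptor of many tissues, was not called apart in 3 cell types, with lowest, median and highest values of 1844, 2516 and 5414 in astrocytes, 1247, 3037.5 and 3700 in pericytes and 458, 2750.5 and 3533 in endothelial cells, and adjusted p of 0.485 to 0.989 between them. Microglia were lower, at 628, 825 and 1154, and all 3 differences from microglia were called, the endothelial one not without replicate 3 (1.178, adjusted p = 0.0609).

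*Dll4* and *Jag2* were endothelial ligands. *Dll4*, the ligand known for restraining endothelial sprouts, had lowest, median and highest values of 1058, 1929 and 2774 in endothelial cells, against 0, 69 and 300 in the pericyte libraries, 1, 21 and 85 in those of astrocytes and 0, 1 and 53 in those of microglia, 3 of whose 6 libraries were at 0. Endothelial libraries did not overlap with the rest. Pericytes and astrocytes (adjusted p = 0.529) and astrocytes and microglia (adjusted p = 0.0747) did not pass as neighbours; pericytes exceeded microglia (3.25, SE 1.11, adjusted p = 0.0132), a call lost without replicate 1 (2.26, adjusted p = 0.0773), 2 (2.57, adjusted p = 0.0899) or 5 (3.06, adjusted p = 0.0586), and astrocytes exceeded microglia without replicate 4 (2.94, adjusted p = 0.0421).

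*Jag2*, a ligand of the Jagged type, had lowest, median and highest values of 880, 1512 and 2267 in endothelial cells, 25, 70.5 and 100 in microglia, 0, 39 and 61 in pericytes and 1, 12.5 and 67 in astrocytes. Endothelial cells were higher than each of the others, by 4.54 to 6.68 on the log2 scale (SE 0.93). No pair of the other 3 was called, with adjusted p of 0.128 between pericytes and microglia, 0.735 between pericytes and astrocytes and 0.0504 between astrocytes and microglia; the last was called with the replicate as a block (adjusted p = 0.0432).

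*Jag1*, the other Jagged ligand, was shared more widely. Its lowest, median and highest values were 1093, 1544.5 and 3662 in pericytes, 503, 804.5 and 1453 in endothelial cells, 244, 378 and 512 in astrocytes and 9, 56 and 87 in microglia. Pericytes and endothelial cells overlapped, and their difference of -1.14 (endothelial cells minus pericytes, SE 0.46) just missed the call at an adjusted p of 0.0513, passing without replicate 4 (-1.32, adjusted p = 0.028). Endothelial cells exceeded astrocytes by 1.20 (SE 0.46, adjusted p = 0.0289), which was lost without replicate 1, 2, 4 or 5 (1.01 to 1.21, adjusted p of 0.0527 to 0.096). Contralateral microglia were the lowest group with no overlap, 3.05 below astrocytes (SE 0.46, adjusted p = 3.41e-07).

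The targets also differed by cell type. *Heyl*, a repressor of mural cells, had lowest, median and highest values of 5708, 8289.5 and 9847 in pericytes, 739, 1092.5 and 1739 in astrocytes, 18, 37.5 and 66 in microglia and 1, 22 and 36 in endothelial cells. Pericytes exceeded astrocytes by 2.88 (SE 0.93, adjusted p = 0.00973) and astrocytes exceeded microglia by 4.93 (SE 0.93, adjusted p = 1.73e-05), without overlap at either step; microglia and endothelial cells were not called apart (adjusted p = 0.343). Summed pericyte markers (*Pdgfrb*, *Des*, *Cd248*, *Cspg4*) were present in contralateral astrocytes at 1538 to 6319, against 44294 to 92716 in pericytes, and their part in the astrocyte levels of *Heyl*, *Hey2* and *Notch3* was not tested.

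*Hey2*, known as a target of Notch in arteries, had lowest, median and highest values of 1231, 1583.5 and 1802 in pericytes, 134, 198 and 251 in astrocytes, 14, 25 and 281 in endothelial cells and 0, 9 and 38 in microglia. Each step was called: pericytes over astrocytes by 3.02 (SE 0.79, adjusted p = 0.00153), endothelial cells below astrocytes (-2.14, SE 0.79, adjusted p = 0.022) and endothelial cells over microglia by 2.59 (SE 0.79, adjusted p = 0.00677). The endothelial values rest on few libraries, since replicates 4 and 3 held 281 and 104 normalized counts and the others 14 to 28. Its call against astrocytes was lost without replicate 1, 2, 5 or 6 (-1.95 to -1.83, adjusted p of 0.0675 to 0.0872), and that against microglia without replicate 3 (1.76, adjusted p = 0.0958) or 4 (1.79, adjusted p = 0.0691).

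*Hey1*, the third member of this repressor family, was the one high in both endothelial cells, with lowest, median and highest values of 1052, 1158 and 1479, and astrocytes, with 859, 1006 and 1619. These groups were not called apart (0.15, SE 0.52, adjusted p = 0.835). Pericytes, at 92, 165.5 and 306, lay below both, and microglia, at 11, 22 and 32, below pericytes (2.94, SE 0.52, adjusted p = 5.31e-06).

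*Hes1*, a repressor that other pathways also induce, was called in 2 of the 6 pairs of cell types, against 5 for *Hey1* and *Heyl* and 6 for *Hey2*. It ran over a wide range within groups, with lowest, median and highest values of 543, 1792 and 7746 in endothelial libraries, 554, 1326 and 4396 in those of pericytes, 459, 682 and 867 in those of astrocytes and 149, 597.5 and 797 in those of microglia. The highest value, 7746, came from endothelial replicate 2. No neighbours in this order were called (adjusted p of 0.144 to 0.833), nor were endothelial cells and astrocytes (adjusted p = 0.0738), which passed without replicate 3 (1.58, adjusted p = 0.0371) or 6 (1.61, adjusted p = 0.0391). Endothelial cells exceeded microglia by 1.94 (SE 0.62, adjusted p = 0.00887), lost without replicate 2 (1.32, adjusted p = 0.115), and pericytes exceeded microglia by 1.73 (SE 0.62, adjusted p = 0.0173), lost without replicate 1 (1.49, adjusted p = 0.0814) or 3 (1.22, adjusted p = 0.116).

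Per kilobase of exons, so that genes can be set beside each other, contralateral pericytes held 1830 ± 338 normalized counts of *Heyl*, 1591 ± 824 of *Notch3* and 1282 ± 1026 of *Hes1* (mean ± SD, n = 6). The ligand highest in pericytes was *Jag1*, at 366 ± 201 per kilobase. Contralateral endothelial cells held 1715 ± 1838 of *Hes1* (1002 ± 644 without replicate 2, n = 5), 502 ± 184 of *Dll4* and 495 ± 61.9 of *Hey1*. Among their receptors *Notch4* and *Notch1* were close, at 276 ± 40.4 and 265 ± 114 per kilobase, and *Notch3* was low at 14.1 ± 21.9 (5.21 ± 3.38 without replicate 4, n = 5). In astrocytes the leading target of the 10 members per kilobase was *Hes1* at 467 ± 106, next to *Hey1* at 457 ± 125, and the leading receptor was *Notch1* at 313 ± 134. In microglia *Notch1* and *Notch4* were at 89.1 ± 19.0 and 78.4 ± 30.0 per kilobase, and the highest of the 3 ligands was *Jag2* at 13.7 ± 5.39.

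Over the 48 libraries, the genes whose log2 levels ran most like each member were named by Pearson's r, given as a description over libraries that share cell types and pools. For *Notch3* they were *Cspg4* (r = 0.956), which encodes the NG2 antigen used in the pericyte gate, *Stim1* (0.947) and *Limd1* (0.940), and for *Notch1* they were *Zhx3* (0.920), *Hk1* (0.897) and *Nr1d1* (0.884). *Notch4* ran most like *Ceacam1* (0.866), *B4galt4* (0.837) and *Plk2* (0.831). For the ligands they were *Dnah2os* (0.878), *Cyyr1* (0.872) and *Tdrp* (0.868) with *Dll4*, *Synpo* (0.878), *Lamc1* (0.873) and *Vim* (0.866) with *Jag1*, and *Pi16* (0.877), *Cracr2b* (0.873) and *Clec1a* (0.871) with *Jag2*. For the targets they were *Coro2b* (0.927), *Plcb1* (0.925) and *Usp54* (0.921) with *Hey1*, *Rbpms2* (0.930), *Lhfp* (0.921) and *Kirrel* (0.914) with *Hey2*, and *Dmpk* (0.912), *Ssbp2* (0.909) and *Cacna1h* (0.908) with *Heyl*. *Hes1* had the loosest partners, *Ube2r2* (0.784), *Strn3* (0.754) and *Foxf2* (0.734).

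The promoters of 3 members are printed because they belong to a receptor and a target that were highest in pericytes (*Notch3* and *Hey2*) and to the ligand that changed in microglia (*Jag1*). Each runs 5′ to 3′ on the strand of the gene, from 250 bases before to 50 after its start, from RefSeq on GRCm38.p6, which holds such an entry for 7 of the 10 members; *Hes1*, *Hey1* and *Heyl* had no entry. Capitals mark the core TGGGAA bound by RBPJ on either strand.
Hey2, chr10:30842734-30843033, minus strand: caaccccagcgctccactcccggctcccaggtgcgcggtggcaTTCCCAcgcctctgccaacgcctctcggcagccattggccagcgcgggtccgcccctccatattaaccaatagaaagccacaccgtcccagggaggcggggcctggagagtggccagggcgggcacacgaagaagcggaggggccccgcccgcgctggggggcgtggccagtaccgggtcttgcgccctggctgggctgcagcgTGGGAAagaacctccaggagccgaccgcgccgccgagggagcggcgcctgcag
Notch3, chr17:32166841-32167140, minus strand: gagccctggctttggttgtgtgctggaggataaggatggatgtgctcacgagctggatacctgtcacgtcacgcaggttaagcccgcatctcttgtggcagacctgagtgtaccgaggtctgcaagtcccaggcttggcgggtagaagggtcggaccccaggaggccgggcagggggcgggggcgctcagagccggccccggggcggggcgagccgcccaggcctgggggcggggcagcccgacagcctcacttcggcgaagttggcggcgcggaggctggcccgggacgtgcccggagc
Jag1, chr2:137116471-137116770, minus strand: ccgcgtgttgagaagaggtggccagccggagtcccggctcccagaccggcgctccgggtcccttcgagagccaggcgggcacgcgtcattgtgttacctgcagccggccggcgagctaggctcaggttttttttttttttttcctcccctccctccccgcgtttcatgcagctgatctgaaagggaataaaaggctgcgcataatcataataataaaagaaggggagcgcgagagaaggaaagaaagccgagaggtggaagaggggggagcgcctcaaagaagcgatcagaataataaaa
Of the 7 promoters only that of *Hey2* held the core, at 207 bases before the start on the opposite strand and at 3 bases before it on the strand of the gene. Among all 32851 promoters of this length 25.6% held it. The E-box CACGTG, a site of repressors of the Hes and Hey type, was in none of the 7 and in 7.15% of all. A match is a run of letters and does not show that a protein binds there.

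The stroke comparison asked which genes differed between ipsilateral and contralateral cells of 1 type, by a separate limma fit for each cell type on log2(normalized count + 1). A gene was called at an adjusted p of at most 0.05 over all genes tested, at least 1.5-fold, with values above 10 in each of the 6 libraries of a hemisphere. None of the 10 genes was called in endothelial cells, pericytes or astrocytes, where 0.491%, 1.02% and 0.341% of all genes were. In microglia 2 of the 9 genes tested were called, *Jag1* as higher and *Notch4* as lower, against 10.6% of all genes; *Dll4* was below the mean of 10 needed for testing. With the replicate number as a block the background was 0.551%, 1.66%, 1.59% and 11% in the same order of cell types, 2 members stayed called in microglia, and *Heyl* was called as lower in astrocytes. At an unadjusted p under 0.05 there were 2 members in microglia, 2 in pericytes, 1 in astrocytes and 1 in endothelial cells. In the same order, 3725 of 13300, 2098 of 13597, 1416 of 15264 and 1581 of 13242 of all genes tested were under it.

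The median log2 fold change of the members was -0.82 in microglia, -0.36 in astrocytes, -0.06 in pericytes and -0.09 in endothelial cells, beside -0.18, -0.06, -0.04 and -0.03 over all genes tested. In bulk RNA of sorted cells, a shift in the mix of cells cannot be told apart from a shift of a gene within cells.

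**Figure D2:**
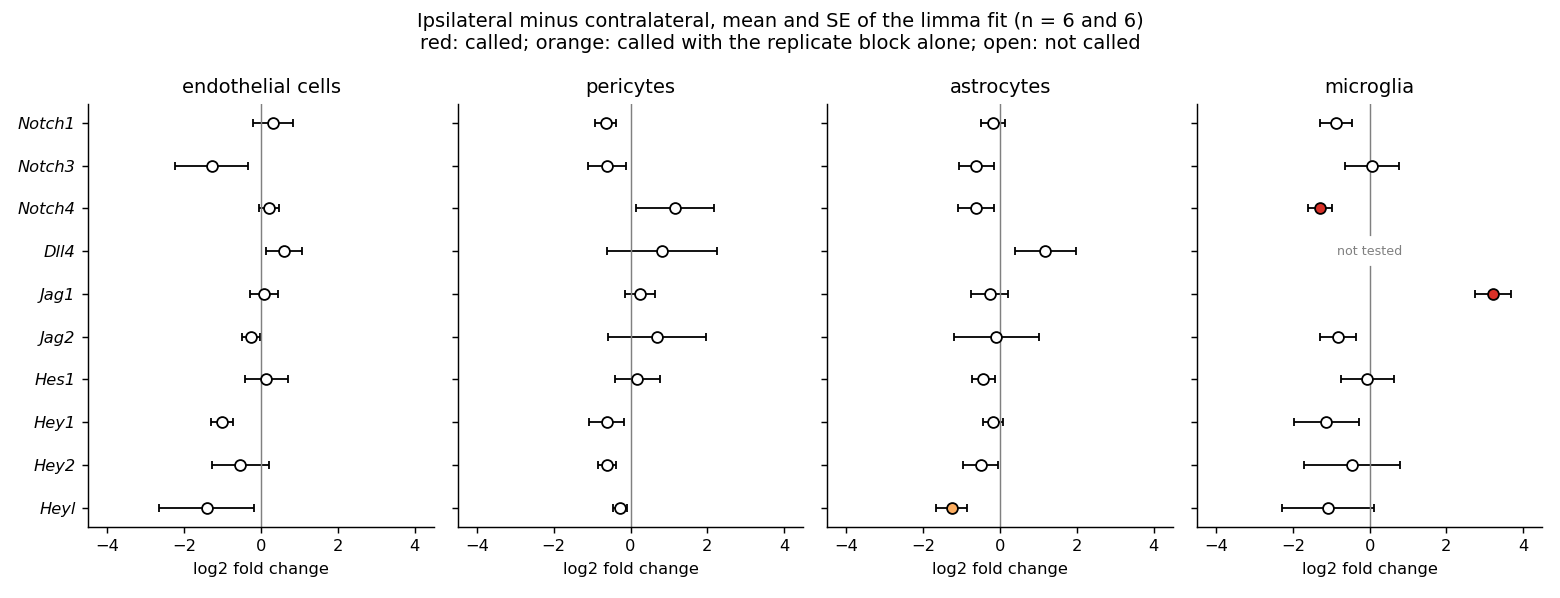
Log2 fold change, ipsilateral minus contralateral, of the 10 genes in each cell type, with the SE of the limma fit (6 and 6 libraries). Red points were called, which were *Jag1* (3.21) and *Notch4* (-1.29) in microglia; the orange point, *Heyl* in astrocytes (-1.26), was called with the replicate block alone, and open points were not called.

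*Jag1* (ENSMUSG00000027276, chr2:137081456-137116644, minus strand, GRCm38) had the largest change of the 10 genes in any cell type by log2 fold change. In contralateral microglia of replicates 1 to 6 it had 87, 57, 9, 55, 66 and 36 normalized counts, and in ipsilateral microglia 278, 403, 637, 450, 240 and 570. All 6 ipsilateral libraries lay above all 6 contralateral ones and every pair rose. The log2 fold change was 3.21 (SE 0.47, limma adjusted p = 0.00105, with the block 0.00663), which amounts to 9.26-fold. The contralateral library of replicate 3, at 9, was near the floor, and without that pool the change was 2.65 (SE 0.35).

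The rise of *Jag1* differed between microglia and each other cell type, in which its log2 fold change was -0.27 (SE 0.48) in astrocytes, 0.26 (SE 0.39) in pericytes and 0.08 (SE 0.37) in endothelial cells. The difference of the changes was -3.13 for endothelial cells minus microglia (SE 0.66, limma adjusted p = 0.0161), -2.95 for pericytes (adjusted p = 0.0177) and -3.49 for astrocytes (adjusted p = 0.00461), and without the block no other member was called in any of the 6 pairs. Over all 15003 genes, 0.273%, 0.727% and 0.293% were called in these 3 pairs, and 0.0267%, 0.0600% and 0.00667% for endothelial cells against pericytes, endothelial cells against astrocytes and pericytes against astrocytes. Without replicate 3 all 3 calls were lost (-2.53, -2.02 and -2.84, adjusted p = 0.168, 0.261 and 0.101). The endothelial call was also lost without replicate 2 (-3.34, adjusted p = 0.0502), 4 (-2.87, adjusted p = 0.0928) or 6 (-3.27, adjusted p = 0.0566), and the pericyte call without replicate 4 (-2.98, adjusted p = 0.0652). In the ipsilateral hemisphere the microglial level of *Jag1*, with a median of 426.5, lay beside that of astrocytes, with a median of 337.5.

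Markers of other cells in microglia were also compared between hemispheres. Summed pericyte markers in microglia were higher ipsilaterally in 5 of 6 pairs (31 to 574 contralaterally, 102 to 1865 ipsilaterally), beside 34058 to 90625 in ipsilateral pericytes, whose *Jag1* was 1179, 2083 and 4497 (lowest, median and highest). Endothelial markers were higher in 3 of 6 pairs (255 to 1217 and 243 to 2305). Summed neutrophil markers (*S100a8*, *S100a9*, *Ngp*, *Camp*) were higher in 6 of 6 pairs, with 46 to 813 contralaterally and 1242 to 15869 ipsilaterally, those of monocytes and macrophages in 4 of 6 pairs (156 to 786 and 397 to 958), and the microglial markers were lower in 6 of 6 pairs (180699 to 227678 and 91419 to 163197). Astrocyte markers in microglia were lower in 6 of 6 pairs with no overlap (2851 to 3616 contralaterally and 958 to 1432 ipsilaterally). Smooth muscle markers were lower in 4 of 6 pairs (47 to 4015 and 106 to 3461), and oligodendrocyte markers were higher in 4 of 6 (928 to 7584 and 1025 to 7392). The part of these cells in the changes of *Jag1*, *Notch4* and the other genes in microglia was not tested.

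*Notch4* (ENSMUSG00000015468, chr17:34564268-34588503, plus strand) in microglia was 688, 495, 358, 817, 307 and 434 in contralateral replicates 1 to 6 and 226, 123, 149, 153, 290 and 338 in ipsilateral ones. It was lower in every pair, though the groups overlapped, and replicates 5 and 6 moved little (mean log2 change -0.22, against -1.82 in replicates 1 to 4). The log2 fold change was -1.29 (SE 0.31, limma adjusted p = 0.017, with the block 0.0327). It was not called when all 48 libraries shared 1 spread (adjusted p = 0.205), nor without replicate 1 (-1.22, adjusted p = 0.061), 3 (-1.29, adjusted p = 0.0578) or 4 (-1.06, adjusted p = 0.0878). *Notch4* in pericytes had a change of the other sign (1.16, SE 1.02, adjusted p = 0.625), with values of 96, 13, 33, 5, 128 and 96 contralaterally and 44, 82, 185, 6, 273 and 324 ipsilaterally; the difference between pericytes and microglia was called only with the block (2.45, adjusted p = 0.214 without it and 0.0173 with it).

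**Figure D3:**
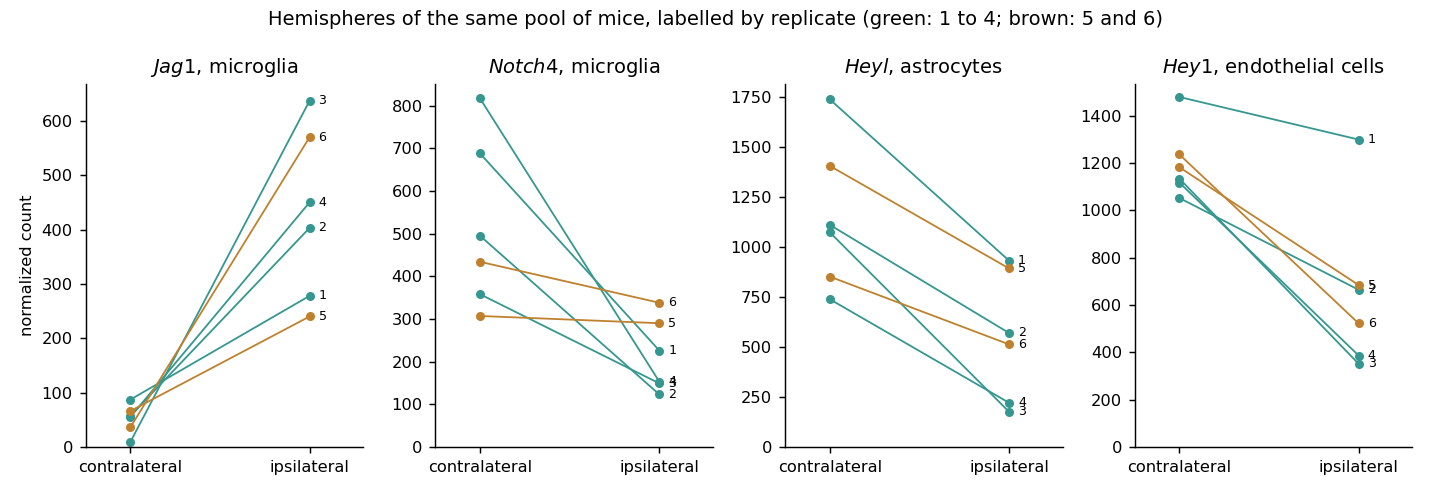
Normalized counts of *Jag1* and *Notch4* in microglia, *Heyl* in astrocytes and *Hey1* in endothelial cells; each line joins the hemispheres of a pool and is labelled by its replicate number (green for 1 to 4, brown for 5 and 6). All 6 lines rise for *Jag1* and all 6 fall for the other 3 genes, and the hemispheres overlap in each panel but the *Jag1* panel.

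The remaining members in microglia were not called. *Notch1* was lower in 6 of 6 pairs, at 628, 915, 727, 805, 1154 and 845 contralaterally and 432, 102, 566, 423, 1091 and 749 ipsilaterally, with a log2 fold change of -0.87 (SE 0.42, adjusted p = 0.193). *Hes1* split by pool: replicates 5 and 6 were higher ipsilaterally (662 to 1433 and 797 to 1680), replicate 2 was also higher (230 to 718) and replicates 1, 3 and 4 were lower. *Jag2* was at -0.82 (SE 0.47, adjusted p = 0.265), while *Notch3*, *Hey1*, *Hey2* and *Heyl* had medians of at most 57 in either hemisphere and SEs of 0.69 to 1.25.

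The rest of the pathway in microglia was read from a list of 46 further genes. Of 41 tested, 1 was called as higher and 7 as lower, 19.5% against the 10.6% of all genes, and the median log2 fold change was -0.41 against -0.18. The 7 lower genes became 4 when all 48 libraries shared 1 spread, 4 without replicate 1, 4 or 5, 3 without replicate 3 or 6 and 9 without replicate 2, while 1 gene was higher in each case. Lower calls over all genes moved too, from 834 of 13300 to 504 of 13300 with the shared spread. Without replicates 1 to 6 in turn they numbered 493, 1180, 297, 338, 597 and 494, of 13233 to 13414 genes tested. *Psen2*, a catalytic subunit of the gamma-secretase that cleaves the receptor, rose from 340 to 544 contralaterally to 749 to 2284 ipsilaterally (1.46, SE 0.26, limma adjusted p = 0.00293), with no overlap. *Maml3* and *Maml2*, coactivators of the nuclear Notch complex, fell by 1.86 (SE 0.37, adjusted p = 0.00568) and 1.27 (SE 0.23, adjusted p = 0.00325). *Mfng*, a sugar transferase that tunes the receptor to its ligands, fell by 1.15 (SE 0.19, adjusted p = 0.00237), from 2325, 2195, 2072, 2586, 2138 and 2266 to 1366, 600, 880, 966, 1318 and 1207 in replicates 1 to 6. The hemispheres did not overlap for *Mfng*, *Maml2* or *Maml3*.

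*Notch2*, the receptor that is no member of the 10, was 1672, 1500, 1110, 1246, 2653 and 1755 in contralateral microglia of replicates 1 to 6. Ipsilaterally it was 807, 185, 544, 985, 1151 and 903, lower in every pair, with a log2 fold change of -1.27 (SE 0.38, limma adjusted p = 0.0422); leaving out any replicate but 2 lost the call (-1.45 to -1.28, adjusted p of 0.0628 to 0.108). *Numb*, an inhibitor of Notch that acts on receptor traffic, fell by 1.04 (SE 0.29, adjusted p = 0.0328), and the histone acetyltransferases *Crebbp* and *Ep300* fell by 0.78 (SE 0.18, adjusted p = 0.0148) and 0.70 (SE 0.18, adjusted p = 0.0226). These calls were lost without replicate 1, 3, 4 or 6 for *Numb* (adjusted p of 0.0511 to 0.134), without 1, 3, 4, 5 or 6 for *Crebbp* (0.0505 to 0.0805) and without 3, 5 or 6 for *Ep300* (0.0572 to 0.113). *Rbpj* itself missed the call at 0.57 (SE 0.18, adjusted p = 0.0506) although it was higher in 6 of 6 pairs. *Dll1*, a ligand, and *Nrarp*, a feedback inhibitor, gave -0.28 (adjusted p = 0.903) and -0.31 (adjusted p = 0.844).

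**Figure D4:**
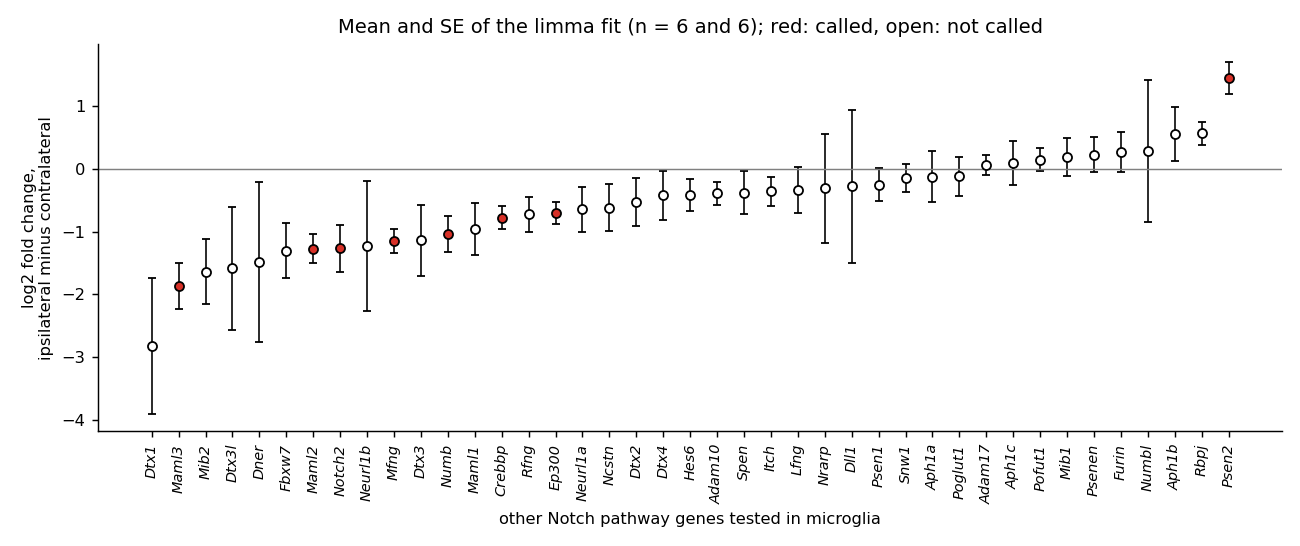
Log2 fold change, ipsilateral minus contralateral, of the 41 other Notch pathway genes tested in microglia, in order of size, with the SE of the limma fit (6 and 6 libraries). Of these genes 31 lie below 0 and 10 above it; the called genes, in red, are 7 below 0 and *Psen2* above it.

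In astrocytes the member with the smallest adjusted p was *Heyl* (ENSMUSG00000032744, chr4:123233556-123249875, plus strand). Replicates 1 to 6 had 1739, 1111, 1074, 739, 1406 and 852 normalized counts contralaterally and 932, 570, 176, 221, 893 and 513 ipsilaterally. Every pair was lower, by 0.65 to 2.6 on the log2 scale, while the groups overlapped between 739 and 932. The log2 fold change of -1.26 (SE 0.40) was not called without the block (limma adjusted p = 0.319) and was called with it (SE 0.25, adjusted p = 0.0341). Pericyte markers moved along: their sum in astrocytes was lower in 6 of 6 pairs (1538 to 6319 contralaterally and 744 to 3622 ipsilaterally), with a median pair difference of -0.69 on the log2 scale. Astrocyte markers and oligodendrocyte markers were each lower in 3 of 6 pairs, smooth muscle markers were lower in 5 of 6, and neutrophil markers were higher in 6 of 6 (1 to 720 and 148 to 4568). The part of these cells in the result was not tested.

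*Hes5*, a target highest in the astrocyte libraries here (850 to 3336 in contralateral astrocytes and at most 34 in any other contralateral library), was lower along with *Heyl*. It was 3336, 1942, 2194, 2430, 1454 and 850 contralaterally and 2433, 940, 565, 795, 1085 and 342 ipsilaterally in replicates 1 to 6, lower in every pair, at -1.13 (SE 0.42, limma adjusted p = 0.433, with the block 0.0273). *Dtx1*, a regulator of receptor traffic, was also called with the block alone (-0.75, adjusted p = 0.465 without it and 0.0298 with it). No other gene among the 44 pathway genes tested was called in astrocytes, and none was without the block. Of the other members, *Dll4* was higher in 6 of 6 pairs at low levels (medians of 21.0 and 33.0; 1.17, SE 0.79, adjusted p = 0.705), *Notch3*, *Notch4* and *Hey1* were lower in 5 of 6 pairs, and adjusted p ran from 0.705 to 0.989 over all members but *Heyl*.

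In endothelial cells *Hey1* (ENSMUSG00000040289, chr3:8663359-8667256, minus strand) was lower in every pair. It was 1479, 1052, 1134, 1117, 1182 and 1236 contralaterally and 1299, 664, 351, 386, 684 and 522 ipsilaterally in replicates 1 to 6; the ipsilateral library of replicate 1 reached the contralateral range, and the other 5 lay below it. The log2 fold change was -1.02 (SE 0.28) and did not pass the call (limma adjusted p = 0.142, with the block 0.111). Summed arterial markers (*Gja5*, *Gja4*, *Efnb2*, *Sox17*, *Bmx*) were lower in 5 of 6 pairs (8066 to 15387 and 7980 to 9428). Their median pair difference was -0.212 on the log2 scale, and the list was not specific to endothelium, as given below. Venous and endothelial markers were each lower in 3 of 6 pairs, with median differences of -0.097 and -0.132. Smooth muscle markers were lower in 6 of 6 (441 to 6161 and 205 to 1603). Pericyte markers were lower in 5 of 6 pairs (103 to 1065 and 68 to 947), and neutrophil markers were higher in 6 of 6 (0 to 1458 and 60 to 8646). The part of such cells in the *Hey1* values was not tested.

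*Dll4* in endothelial cells was 1983, 1058, 2464, 1140, 1875 and 2774 contralaterally and 567, 2538, 2770, 3085, 5471 and 5274 ipsilaterally, higher in 5 of 6 pairs. Ipsilateral replicate 1 alone was lower, and the change was 0.59 (SE 0.47, adjusted p = 0.678). *Notch1* had 3164, 458, 3533, 2450, 2858 and 2643 contralaterally and 732, 2608, 2899, 3480, 4413 and 4026 ipsilaterally, with contralateral replicate 2 and ipsilateral replicate 1 far below the rest. Its change of 0.31 (SE 0.51, adjusted p = 0.871) ran from -0.13 to 0.79 when single pools were left out. No member was called in replicates 3 to 6 alone, a choice made after these libraries were seen. *Jag2* was at -0.27 (SE 0.24), *Notch4* at 0.21 (SE 0.27), and *Notch3*, *Hey2* and *Heyl* were low, with contralateral medians of 47, 25 and 22. None of 42 other pathway genes tested was called, and when all 48 libraries shared 1 spread *Mib1*, a ligase that acts on the ligands, was called as lower (-1.13, limma adjusted p = 0.116, then 0.0374); *Notch2*, *Dll1*, *Rbpj* and *Nrarp* gave adjusted p of 0.632 to 0.857.

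In pericytes *Notch1*, *Notch3*, *Hey2* and *Heyl* were lower in 4 or 5 of 6 pairs without passing the test, *Notch4* was higher in 5, as given above, and *Hey1* was higher in 3 and lower in 3. *Hey2* was 1575, 1231, 1421, 1592, 1662 and 1802 contralaterally and 1996, 634, 781, 887, 1132 and 999 ipsilaterally, lower in 5 of 6 pairs (-0.62, SE 0.23, limma adjusted p = 0.219, with the block 0.136). *Notch1* was 2926, 1247, 3082, 3700, 3604 and 2993 contralaterally and 1624, 2230, 1025, 1767, 2691 and 1725 ipsilaterally, lower in 5 of 6 pairs (-0.65, SE 0.28, adjusted p = 0.284). In both genes the exception was a single pool, replicate 1 for *Hey2* and replicate 2 for *Notch1*. *Notch3* was 10516, 2849, 11973, 16587, 22702 and 11896 and 8427, 8673, 2521, 4178, 15943 and 10196, lower in 5 of 6 pairs (-0.61, SE 0.50, adjusted p = 0.591), and *Heyl* was at -0.28 (SE 0.18, adjusted p = 0.492).

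The mural mix of the pericyte gate moved with hemisphere. Summed smooth muscle markers were lower in 6 of 6 pairs (305671 to 472420 contralaterally and 140102 to 323604 ipsilaterally), pericyte markers were lower in 5 of 6 (44294 to 92716 and 34058 to 90625), and microglial markers were higher in 5 of 6 (249 to 11003 and 267 to 28388). Arterial markers were lower in 6 of 6 pairs (9827 to 13672 and 5715 to 11606). Their contralateral sum lay within that of endothelial cells (8066 to 15387), while endothelial markers reached 792 to 3027 in contralateral pericytes against 63144 to 92219. The arterial list was thus not specific to endothelium here. Neutrophil markers were higher in 6 of 6 pairs (0 to 784 and 26 to 10628, a median pair difference of 5.49 on the log2 scale). The part of this mix in the pericyte values was not tested. Of 41 other pathway genes tested in pericytes none was called; when all 48 libraries shared 1 spread, *Psen2* (1.37, limma adjusted p = 0.144, then 0.00726) and *Mfng* (2.45, adjusted p = 0.316, then 0.041) were called as higher. *Notch2*, *Dll1*, *Rbpj* and *Nrarp* gave adjusted p of 0.578 to 0.928.

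The changes of *Jag1* and *Hes1* varied by pool. In pericytes *Jag1* was 3302, 1093, 3662, 1672, 1417 and 1188 contralaterally and 2250, 1259, 1179, 1916, 3777 and 4497 ipsilaterally in replicates 1 to 6, and *Hes1* was 4396, 751, 2942, 978, 1674 and 554 and 2622, 944, 450, 1372, 3549 and 3336. The mean log2 change was 1.67 for *Jag1* and 1.84 for *Hes1* in replicates 5 and 6, against -0.45 and -0.66 in replicates 1 to 4. Endothelial cells gave 1.26 and 1.24 in replicates 5 and 6, against -0.51 and -0.41 in replicates 1 to 4. In astrocytes the values were 0.53 and 0.30 against -0.68 and -0.80. Both genes were thus higher ipsilaterally in 2 of 2 pairs of replicates 5 and 6 in these 3 cell types, and lower on average in replicates 1 to 4. The split was not complete, since in pericytes both genes also rose in replicates 2 and 4. The pools are the same in the 3 cell types, which are therefore not separate evidence. Other genes split too. In endothelial cells of replicates 5 and 6 *Notch4* rose (2319 to 3633 and 1743 to 3332), as did *Nrarp* (44 to 259 and 84 to 201). Their mean changes in replicates 1 to 4 were -0.076 and -0.11. The share of all genes that split in this way was not counted. The same pools differ in microglial RNA in these cell types, as given above, and the difference between them was not tested.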

How the data were processed

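The analysis used 48 RNA libraries of 4 sorted cell types. Per the study's methods and the submitters' processing notes, the authors trimmed reads with Trimmomatic 0.38, aligned them with STAR 2.6.1d to GRCm38 (mm10), counted them on genes with featureCounts 1.6.3 and normalized the counts with DESeq2 1.18.1. The deposited table gives the counts after this scaling as whole numbers, rounded by the authors, treated here as a score and not as raw counts, so no count test was run. Totals per library were 10549900 to 16942165, and 1 read was estimated to be worth 0.669 to 2.366 of them.

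Tests used limma 3.58.1 in R 4.3.3 (lmFit, eBayes with a trend, two-sided, Benjamini-Hochberg adjustment over all genes tested) on log2(normalized count + 1), which understates changes of low genes, for genes whose mean reached 10. Each stroke fit held the 12 libraries of a cell type without a block. Levels and differences of changes came from a fit of 48 libraries. The scripts were tested on simulated data. Summaries and plots used Python 3.11.15, numpy 2.4.6, pandas 2.3.3 and matplotlib 3.10.9.

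Per the study's methods 1 pool of mice gave both hemispheres of a replicate, so the replicate numbers pair the samples. Across genes, deviations from the group mean were correlated between same-numbered libraries. The mean r was 0.135 in microglia, 0.38 in astrocytes, 0.227 in pericytes and 0.227 in endothelial cells. Single numbers ran from -0.028 to 0.353, 0.019 to 0.658, -0.073 to 0.418 and 0.01 to 0.55 in the same order. For other numbers the means were -0.026, -0.076, -0.045 and -0.039. These are no separate baseline, because deviations from a group mean cancel out, which ties them to the means above.

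The 10 genes, the lists of 46 pathway genes and of markers, and the tests were chosen with earlier results of these data known. Named were the 10 genes, *Notch2*, *Dll1*, *Rbpj*, *Hes5* and *Nrarp*, pathway genes called in a cell type (at most 8), the 3 genes most like each member, and markers beside results they move with; *Dtx1*, *Mib1*, *Mib2* and *Fbxw7* are outside this rule and were named after their values were seen. Neuron, fibroblast and venous markers were also summed. Lengths are unions of exons. Alternatives were the replicate block, pseudocounts of 0.1 and 10, a mean of 50 or no filter, rescaling within the cell type, a joint fit, no expression rule, each replicate left out, replicates 1 to 4 alone, the cell types of the titles and, added after seeing the data, replicates 3 to 6 alone in endothelial cells. Promoters are RefSeq entries on GRCm38.p6.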

Additional observations from a re-analysis of the deposited data

Results flagged for a closer look

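Among the 80 groups of 6 values, 9 held a library set apart from the other 5 by a wide gap, all on the low side, where chance gives about 1 in 20. For *Notch1* these were contralateral endothelial replicate 2 (458 against 2450 to 3533), ipsilateral endothelial replicate 1 (732 against 2608 to 4413) and contralateral pericyte replicate 2 (1247 against 2926 to 3700). The last pool was also low for *Notch3* in contralateral pericytes (2849 against 10516 to 22702), and ipsilateral endothelial replicate 1 for *Dll4* (567 against 2538 to 5471). *Jag1* in ipsilateral astrocytes of replicate 4 was 54, against 307 to 628. The other 3 were at low levels: *Jag2* was 0 in contralateral pericyte replicate 1 (14 to 61 in the others) and 0 in ipsilateral pericyte replicate 4 (30 to 133), and *Heyl* was 1 in contralateral endothelial replicate 3 (13 to 36).

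The change of *Jag1* with stroke differed between microglia and each other cell type, by the limma test of the difference itself: -3.13 for endothelial cells minus microglia, -2.95 for pericytes minus microglia and -3.49 for astrocytes minus microglia on the log2 scale. Each of these calls was lost without replicate 3 (adjusted p = 0.168, 0.261 and 0.101), and some without other replicates, as given above.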

How the results depend on the processing

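The members called numbered 0, 0, 0 and 2 in endothelial cells, pericytes, astrocytes and microglia. With each replicate left out the counts were 0 to 0, 0 to 0, 0 to 0 and 1 to 2, the calls between cell types 39 to 44 (44 with all) and the differences of changes 0 to 3 (3 with all). The replicate block raised the astrocyte count to 1 and changed 3 calls of 127 single results, those of *Heyl* and *Hes5* in astrocytes and of *Jag2* between astrocytes and microglia; beyond these it called the difference of *Notch4* between pericytes and microglia, and *Dtx1* in astrocytes and *Mib2* in microglia (-1.64, adjusted p = 0.0527 without and 0.0415 with it). The joint fit lowered the microglial count to 1 and called 4 pathway genes that were not called otherwise, *Mib1* in endothelial cells, *Psen2* and *Mfng* in pericytes and *Fbxw7* in microglia (-1.30, adjusted p = 0.0691 without and 0.0269 with it). By the cell types of the sample titles the counts were 7 in pericytes and 8 in microglia, and signs turned for *Dll4* (-3.33), *Jag1* (-2.17), *Hes1* (-1.80), *Notch2* (-0.94) and *Dll1* (-1.34) in pericytes and for *Notch1* (1.09), *Hes1* (1.91), *Hey1* (2.32), *Hey2* (7.13), *Heyl* (7.53), *Notch2* (0.0216), *Dll1* (1.82), *Rbpj* (-0.88), *Nrarp* (4.94) and *Psen2* (-0.44) in microglia, of which *Notch2* and *Psen2* are called genes of the report. Since the markers followed the column names, the titles set pericytes against microglia, and these turns do not describe a stroke change. Under the other settings every sign that turned belonged to a gene not called. With replicates 1 to 4 alone these were *Notch4* (-0.076), *Jag1* (-0.51), *Hes1* (-0.41), *Hes5* (-0.18) and *Nrarp* (-0.11) in endothelial cells, *Jag1* (-0.45) and *Hes1* (-0.66) in pericytes, *Jag2* (0.12) in astrocytes and the endothelial minus microglial level of *Notch3* (0.82). A pseudocount of 10 turned *Jag2* in astrocytes (0.11) and *Hey2* in microglia (0.0188), and replicates 3 to 6 alone turned *Heyl* in endothelial cells (0.11). The cause of the turns under these other settings was not tested. Left-out replicates gave ranges that crossed 0 for genes that were not called. For the change in endothelial cells they were *Notch1* -0.13 to 0.79, *Jag1* -0.21 to 0.38, *Hes1* -0.17 to 0.47 and *Hes5* -0.14 to 1.01. For the change in pericytes they were *Dll4* -0.13 to 2.43, *Jag1* -0.0747 to 0.64, *Jag2* -0.45 to 1.598, *Hes1* -0.31 to 0.75, *Dll1* -0.48 to 1.74, *Rbpj* -0.12 to 0.13 and *Nrarp* -0.64 to 0.24. For the change in astrocytes they were *Jag1* -0.44 to 0.19, *Jag2* -0.64 to 0.57 and *Dll1* -0.58 to 0.32. For the change in microglia they were *Notch3* -0.21 to 0.37, *Hes1* -0.40 to 0.48, *Hey2* -1.33 to 0.22, *Dll1* -0.85 to 0.47 and *Nrarp* -0.75 to 0.45. For the level of endothelial cells minus pericytes they were *Hes1* -0.42 to 0.66. For the level of endothelial cells minus astrocytes they were *Notch1* -0.56 to 0.0152. For the level of endothelial cells minus microglia they were *Notch3* -0.70 to 0.43. For the level of pericytes minus astrocytes they were *Notch1* -0.15 to 0.17.

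Of the alternatives to single results, 1600 kept direction and call, 64 lost a call, 22 gained one and 62 turned sign. Values of a few normalized counts lie near the worth of 1 to 3 reads, so differences among genes with such values were not detectable at this depth.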
